A study of Mus musculus with 6 samples.

Results

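The largest family of LINE-associated ATAC-seq peaks comprised 1909 of the 44155 autosomal peaks in the 2 lists examined, 1334 of 22457 in Spen KO clone 3 and 575 of 21698 in HATX WT. Members were the autosomal peaks whose mm9 sequence matched a clone 3 peak at chr19:9828174-9828978 with at least 80% identity over at least 100 bp and an e-value of up to 1e-10. This reference peak, called the representative, was itself chosen from peaks found in 1 list only, so the split of members between the lines is a description of the family and carries no test. Members are called shared where a peak of the other list overlaps by at least 1 bp, and otherwise clone 3-only or WT-only.

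The series profiled open chromatin in haploid mouse embryonic stem cells that carry a doxycycline-inducible Xist transgene, in 3 lines of mixed genomic background grown in serum and LIF. HATX WT has intact Spen. The Spen KO lines, clone 2 and clone 3, are described as having most or all of Spen deleted, a gene that encodes an RNA-binding corepressor, and each is a single clone. Each line was sampled without doxycycline and after 48 hr at 2 ug/ml, but the 2 lists do not state which condition they hold, and clone 2 was not analysed here. A list combines 2 replicates, technical per the study's methods, into 1 set of peaks, and since the labels name only 1 library per condition of a line, the replicate values could be those of the 2 conditions, so line, clone and library cannot be told apart and no test between lines was possible. Intervals are 95% intervals for counting error only (Wilson for shares, binomial order statistics for medians), and the read depth behind a peak is unknown. A higher score in bulk cells cannot be told apart from more cells with an open site.

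LINE-1 (L1) elements are retrotransposons that copy themselves through an RNA intermediate. Mouse L1 elements begin with a promoter made of tandem repeated units called monomers, followed by ORF1, which encodes an RNA-binding chaperone, and ORF2, which encodes the endonuclease and reverse transcriptase. Embryonic stem cells restrain these promoters with DNA methylation, the HUSH complex and the H3K9 methyltransferase SETDB1 with its corepressor TRIM28, while YY1 is known to bind L1 promoters.

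The representative had this tandem structure. Its 805 bp matched themselves at an offset of 190 bp over 484 bp with 86.8% identity, at 405 bp over 348 bp with 82.5% identity and at 617 bp over 126 bp with 80.2% identity. An identical stretch of 31 bases occurred 3 times and was used to divide the sequence into units, which are shown because copies with peaks spanned more of this repeated sequence than copies without. Capitals mark GCCATNTT, the sense-strand form of the YY1 core AANATGGC.
Unit 1, chr19:9828307-9828496, plus strand: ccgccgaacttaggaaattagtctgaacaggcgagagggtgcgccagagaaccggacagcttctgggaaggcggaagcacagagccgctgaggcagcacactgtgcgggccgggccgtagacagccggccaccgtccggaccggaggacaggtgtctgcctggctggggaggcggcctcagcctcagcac
Unit 2, chr19:9828497-9828708, plus strand: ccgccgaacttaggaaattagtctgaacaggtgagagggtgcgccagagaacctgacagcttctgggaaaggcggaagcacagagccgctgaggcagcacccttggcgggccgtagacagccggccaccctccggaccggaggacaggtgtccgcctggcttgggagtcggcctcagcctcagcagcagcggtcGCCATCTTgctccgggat
Unit 3, chr19:9828709-9828978, plus strand: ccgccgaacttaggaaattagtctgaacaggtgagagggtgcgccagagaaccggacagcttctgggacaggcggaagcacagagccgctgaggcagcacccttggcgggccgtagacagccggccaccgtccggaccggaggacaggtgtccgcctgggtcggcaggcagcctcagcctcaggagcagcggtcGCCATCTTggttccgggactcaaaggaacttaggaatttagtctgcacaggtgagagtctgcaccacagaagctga
Unit 1 held no such match, whereas units 2 and 3 each held 1. The representative held 3 in all and lay in intergenic sequence 145 kb from the nearest coding transcription start site (TSS), that of Incenp, a subunit of the chromosomal passenger complex.

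The 58 bases around the second of these matches were covered by 1904 of the 1909 members (99.7%), so this window allows members of every class to be compared. The lines below give the window in the representative, with the YY1-type match in capitals, and then in the 3 highest-scoring clone 3-only, WT-only and shared members with an alignment across it (shared members by their clone 3 score), all in the orientation of the element. In these 9 members, capitals mark bases that differ from the representative or are inserted.
Representative, chr19:9828666-9828723, plus strand: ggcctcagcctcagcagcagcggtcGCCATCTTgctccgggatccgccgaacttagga
Clone 3-only 1, chr2:82728903-82728962, minus strand: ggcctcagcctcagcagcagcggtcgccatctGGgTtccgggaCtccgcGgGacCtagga
Clone 3-only 2, chr3:115619416-115619473, plus strand: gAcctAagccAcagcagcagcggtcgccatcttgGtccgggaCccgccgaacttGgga
Clone 3-only 3, chr1:117696188-117696245, plus strand: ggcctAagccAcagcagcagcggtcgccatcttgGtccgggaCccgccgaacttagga
WT-only 1, chr3:111995258-111995317, minus strand: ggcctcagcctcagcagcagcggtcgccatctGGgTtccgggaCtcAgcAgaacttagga
WT-only 2, chr3:43884557-43884616, plus strand: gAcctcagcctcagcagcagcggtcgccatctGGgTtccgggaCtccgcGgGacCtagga
WT-only 3, chr7:49071440-49071499, minus strand: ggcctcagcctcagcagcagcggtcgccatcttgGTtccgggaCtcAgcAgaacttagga
Shared 1, chr13:86730320-86730377, minus strand: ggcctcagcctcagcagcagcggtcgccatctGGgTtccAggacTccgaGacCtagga
Shared 2, chr2:95774695-95774754, minus strand: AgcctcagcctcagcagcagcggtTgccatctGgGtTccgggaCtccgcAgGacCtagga
Shared 3, chr10:89711894-89711951, plus strand: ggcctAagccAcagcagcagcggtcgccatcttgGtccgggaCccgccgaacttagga
The 9 windows differed from the representative at 4 to 9 positions, deletions included, with 4 to 7 in the clone 3-only, 5 to 8 in the WT-only and 4 to 9 in the shared members. The YY1-type match at this place was kept in clone 3-only 2, clone 3-only 3, WT-only 3 and shared 3. It was lost in clone 3-only 1, WT-only 1, WT-only 2, shared 1 and shared 2, which include the first member of each class. The third clone 3-only and the third shared member were written with the same 58 letters, although they lie on chromosomes 1 and 10.

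Of the 1334 clone 3 members, 841 were clone 3-only and 493 were shared. Clone 3-only peaks thus made up 63.0% of the family in that list (60.4 to 65.6%), against 28.4% of all autosomal clone 3 peaks. Of the 575 WT members, 81 were WT-only and 494 were shared, which placed the WT-only share at 14.1% (11.5 to 17.2%), against 26.0% of all autosomal WT peaks. Since the representative was selected on this kind of difference, nothing is read from these shares about the family. Over all other autosomal peaks the shares were close, with 26.2% found only in clone 3 and 26.3% found only in WT. Among the 720 other clone 3 peaks in which under 50% of 75-base sequences occur once in mm9, 31.8% were clone 3-only, and of the 648 such WT peaks 25.2% were WT-only. Among other peaks over 10 kb from a coding TSS, 35.0% of 9763 were clone 3-only and 28.8% of 8906 were WT-only.

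All 1909 peaks with any match at this e-value were members, and no peak lay just outside the identity threshold. By the highest identity of any match of at least 100 bp, the lowest member was the clone 3-only peak at chr3:159317156-159317772, at 83.2% over 214 bp, with replicate values of 16.3 and 15.9. The next was the clone 3-only peak at chr3:115618880-115619646, at 85.4% over 425 bp, with 29.3 and 32.0. The scale of these replicate values is not named in the lists, so they are compared mainly as ranks.

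The members lay at the start of L1 elements. An open reading frame of at least 300 codons began downstream on the same strand, within 8000 bp of the copy, for 834 of 841 clone 3-only members (99.2%), 81 of 81 WT-only members and 490 of 493 shared members of the clone 3 list (99.4%). Over all 3656 copies of the sequence on the mm9 autosomes, 3519 had such a frame downstream, against 233 upstream on the same strand and 60 downstream on the opposite strand. The first frame most often had 371 codons, as in 2403 of the 3519 copies (68.3%), and most often began 256 bp after the copy. The longest frame most often had 1281 codons, as in 1531 copies (43.5%). These are the order and sizes in which ORF1 and ORF2 follow an L1 promoter. A match of at least 500 bp to a few elements that the study's repeat annotation names L1Md_F or L1Md_F2 lay downstream of 3630 copies (99.3%). No other L1 subfamily was compared, so this match does not assign the copies to a subfamily.

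Copies with peaks more often kept a long frame than copies without, and such frames were also more common on longer copies. A frame of at least 1000 codons followed 76.9% (73.0 to 80.4%) of the 493 copies with a peak in both lists, 68.8% (65.6 to 71.9%) of the 830 with a clone 3 peak only, 69.6% (58.8 to 78.7%) of the 79 with a WT peak only and 35.5% (33.5 to 37.5%) of the 2254 with no peak. Both frames had their most common length in 766 of 1323 copies with a clone 3 peak (57.9%), in 361 of 572 with a WT peak (63.1%) and in 579 of 2254 with no peak (25.7%). The interval for the 79 copies with a WT peak only overlaps those of both other classes with peaks, whose own intervals do not overlap each other.

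Longer copies held peaks more often, up to 1000 bp in clone 3 and up to 1500 bp in WT. Of the 3656 autosomal copies, 36.2% (34.6 to 37.8%) overlapped a clone 3 peak and 15.6% (14.5 to 16.9%) a WT peak, and among copies with at least 400 bp aligned 56.1% and 24.7% did. Among the 696 copies spanning up to 300 bp, 6 had a clone 3 peak (0.862%) and none had a WT peak (0 of 696, which allows a share of up to 0.431%, taken as 3 counts of the total, or 0.549% by the Wilson limit drawn in the plot by span). Between 400 and 500 bp the shares were 28.0% and 5.26%, between 600 and 700 bp 67.1% and 21.7%, and between 800 and 1000 bp 88.3% and 49.5%. Between 1000 and 1500 bp they were 86.3% and 56.7%. Beyond 1500 bp they were 72.2% (62.2 to 80.4%) in clone 3 and 46.7% (36.7 to 56.9%) in WT. The clone 3 share was above the WT share in every span bin. The family was chosen with a difference between these lists in view, so this is a description and no test between the lines.

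**Figure D1:**
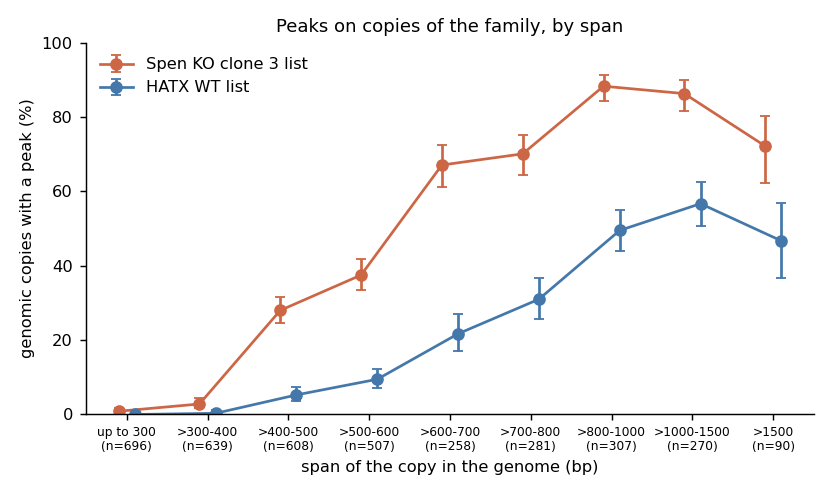
Share of autosomal copies of the family in mm9 that overlap a peak (y axis, percent) by the span of the copy (x axis, bp; n is the number of copies), for the Spen KO clone 3 and HATX WT lists. Points are shares and bars 95% Wilson intervals, and the shares are highest at 88.3% in clone 3, in copies over 800 to 1000 bp, and at 56.7% in WT, in copies over 1000 to 1500 bp.

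The span pattern was present with and without a long frame. Among copies over 800 bp with a frame of at least 1000 codons, 456 of 528 had a clone 3 peak (86.4%) and 289 a WT peak (54.7%), and among those without such a frame 113 of 139 (81.3%) and 58 (41.7%) did. Up to 400 bp, 2.81% of 320 copies with the frame and 1.48% of 1015 without it had a clone 3 peak. Between 600 and 800 bp, 71.7% of 378 copies with the frame and 61.5% of 161 without it had a clone 3 peak. WT peaks ran the other way there, at 25.1% (21.0 to 29.7%) and 29.8% (23.3 to 37.3%). A longer copy offers more bases for a peak to overlap, and the part of this in the span pattern was not tested.

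YY1-type matches rose with the span of the copy, from a median of 1 in the 1335 copies up to 400 bp to 5 in the 667 copies over 800 bp. By class, the median number of sense matches was 4 in copies with a peak in both lists, 3 in copies with a clone 3 peak only, 3 with a WT peak only and 1 in copies with no peak. Of the 447 copies without a match, 9.84% (7.41 to 13.0%) had a clone 3 peak and 3.58% (2.22 to 5.73%) a WT peak. With 3 matches the shares were 58.4% and 18.1% of 503 copies, and with 5 matches 94.3% (89.8 to 96.9%) and 60.0% (52.6 to 67.0%) of 175 copies. With more than 5 matches they were lower, at 79.9% (74.0 to 84.8%) and 50.2% (43.5 to 57.0%) of 209 copies. Within bins of span the clone 3 shares rose less with the number of matches, and the WT shares were not higher with 4 or more matches than with 0 or 1. Among copies over 600 to 800 bp, a clone 3 peak lay on 68.7% (56.8 to 78.5%) of 67 copies with 0 or 1 match and on 70.5% (62.9 to 77.1%) of 156 copies with 4 or more, and a WT peak on 37.3% (26.7 to 49.3%) and 26.9% (20.6 to 34.4%). Among copies over 800 bp the shares were 76.2% (54.9 to 89.4%) of 21 copies and 87.0% (84.0 to 89.5%) of 562 copies in clone 3, and 66.7% (45.4 to 82.8%) and 50.2% (46.1 to 54.3%) in WT.

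**Figure D2:**
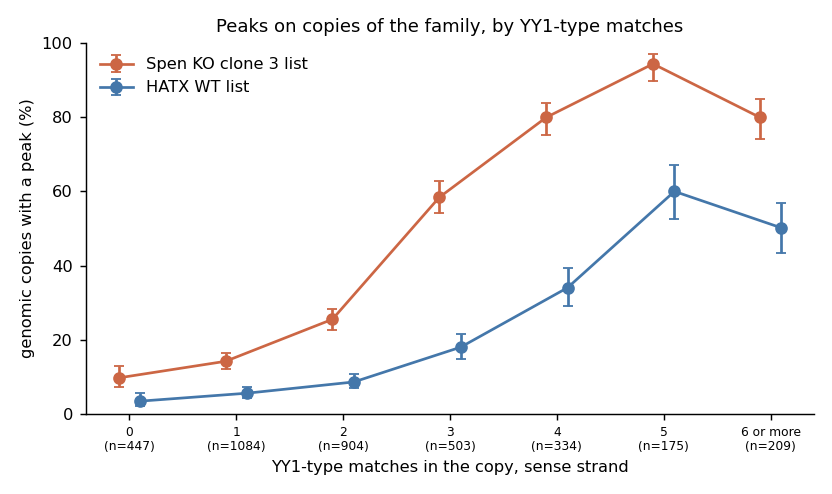
Share of autosomal copies that overlap a peak (y axis, percent) by the number of sense-strand GCCATNTT matches in the copy (x axis; n is the number of copies), for both lists. Points are shares and bars 95% Wilson intervals, and both lines are highest at 5 matches, at 94.3% in clone 3 and 60.0% in WT, in copies not separated by span.

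Within the peaks themselves the YY1 core was the most frequent of 10 motifs sought, on either strand, within the central 300 bp of each peak. AANATGGC was found in 736 of 841 clone 3-only members (87.5%), 68 of 81 WT-only members (84.0%) and 436 of 493 shared members of the clone 3 list (88.4%), against 10.7% of all autosomal clone 3 peaks and 8.09% of all autosomal WT peaks. The GC box GGGCGG, the core bound by Sp1, was found in 69.1%, 76.5% and 79.9% of these classes, against 43.2% and 45.4% of all peaks. The ETS core CCGGAAG was found in 58.6%, 48.1% and 57.8%, against 12.4% and 11.7%. ATGCAAAT, the octamer bound by Oct4, was found in no member in this window, against 3.29% of all clone 3 and 3.24% of all WT peaks, nor was the cyclic AMP response element TGACGTCA (1.42% and 1.75%) or the NRF1 core GCGCNTGCG (4.92% and 5.84%). Over whole peaks, 5 clone 3-only members held the octamer and 2 the NRF1 core. Also over whole peaks, 75 of 81 WT-only members held the GC box (92.6%) and 73 the YY1 core (90.1%). In the other classes the YY1 core remained the more frequent of these motifs. Within the central 300 bp, the Sox motif ACAATGG, the E-box CACGTG, the AP-1 site TGANTCA and the STAT site TTCCNGGAA were each found in at most 2 members of a class, against 1.13% (STAT) to 8.41% (AP-1) of all peaks in a list. Over whole peaks, the AP-1 site was in 8 clone 3-only and 10 shared members of the clone 3 list. The GC box and the other motifs can overlap each other, and members share ancestry, so they are not independent sites.

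Peak centres lay in the promoter units, upstream of the end of the copy. The median centre was 320.5 bp (309 to 331 bp) upstream of the 3' end of the copy in clone 3-only members, 389.5 bp (354 to 454 bp) in WT-only members and 435 bp (416 to 453 bp) in shared members of the clone 3 list. The intervals for clone 3-only members lay below both others, as did the spans of their copies, with medians of 700 bp against 752 bp and 912 bp. Median peak length was 739 bp (718 to 755 bp) for clone 3-only and 918 bp (888 to 940 bp) for shared members of the clone 3 list, while WT-only members measured 668 bp (618 to 750 bp). All were longer than other peaks, whose medians were 408 bp for clone 3-only and 551 bp for shared peaks of the clone 3 list.

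**Figure D3:**
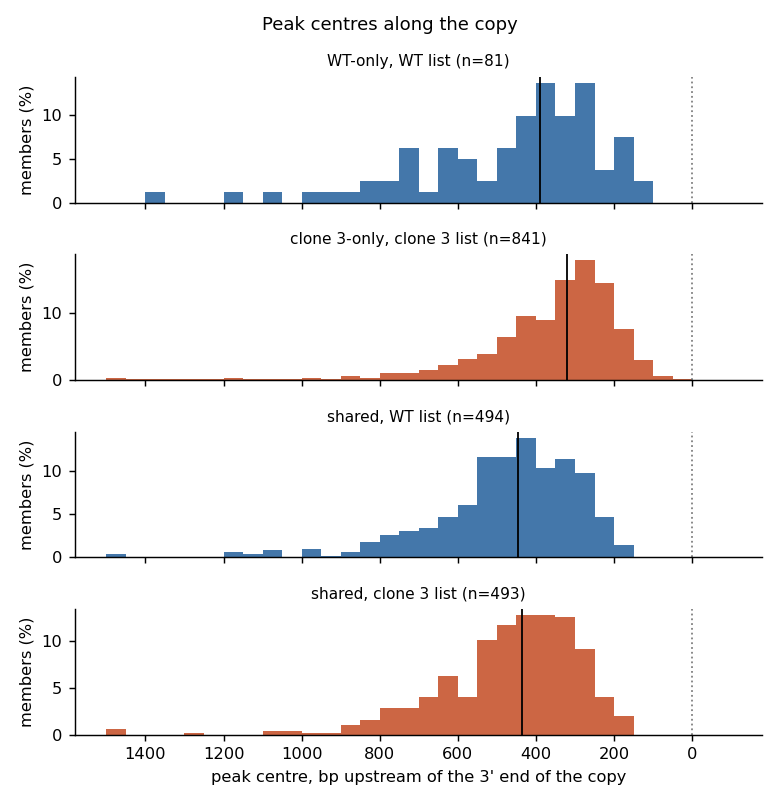
Distribution of peak centres (y axis, percent of members) by distance upstream of the 3' end of the copy (x axis, bp) for the 4 sets of members. The solid line is the median (320.5 bp for clone 3-only and 435 bp for shared members of the clone 3 list), the dotted line the end of the copy, and members beyond the axis are counted in the end bins.

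Median similarity to the representative differed by under 1 percentage point between the classes, while the upper quartile was 90.3% in clone 3-only and WT-only and 87.3% in shared members of the clone 3 list. For the highest-scoring match, a different measure from the highest identity above, the median identity was 87.2% (87.1 to 87.6%) in clone 3-only, 86.9% (86.5 to 88.5%) in WT-only and 86.8% (86.7 to 86.9%) in shared members of the clone 3 list. Identity of the copy to the majority sequence of all copies was 93.0% (92.8 to 93.0%), 92.7% (91.8 to 93.0%) and 92.9% (92.8 to 93.0%) in the same order. In the genome, by contrast, copies closest to the representative rarely held peaks. Of the 809 copies over 92% identical, 9.27% had a clone 3 peak and 1.85% a WT peak, against 75.9% and 39.3% of the 700 copies over 86 to 87% identical. Copies with no peak were also shorter, with a median span of 350.5 bp (335 to 364 bp).

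Most of the sequence in these peaks occurs more than once in mm9. The median share of 75-base sequences found once, the length of the study's reads, was 12.7% (11.2 to 14.1%) in clone 3-only members, 10.8% (6.88 to 15.4%) in WT-only members and 9.65% (8.34 to 10.8%) in shared members of the clone 3 list, against 100% in other peaks of each class. The representative, at 91.0%, was far from typical. The study's peak calling kept uniquely mapped read pairs, a separate analysis placed reads with several matches at random, and the lists do not state which reads they rest on. The reference copies may also differ from those in cells of mixed background, and the part of mapping in the members was not tested. Copies with no peak held more distinct sequence, with a median of 36.0% (33.3 to 38.0%) against 7.42% (6.57 to 8.47%) in copies with a peak in both lists. A clone 3 peak lay on 42.3% of the 794 copies with no 75-base sequence found once, on 70.9% of the 361 copies with over 5 to 10%, and on 3.52% of the 398 copies with over 80%.

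Members ranked in the middle of the lists in clone 3 and low in WT. The score of a peak was the mean of its replicate values, and its percentile was taken among the autosomal peaks of its own list. The median percentile was 39.8 (38.7 to 41.4) for clone 3-only members, 21.8 (16.3 to 26.2) for WT-only members, and for shared members 48.7 (46.4 to 50.2) in clone 3 and 28.2 (25.9 to 29.4) in WT. No member of any class reached percentile 90 of its list. Scores at or above the list median were held by 30.3% of clone 3-only members, against 14.1% of other clone 3-only peaks, and by 6.17% of WT-only members, against 12.2% of other WT-only peaks. For shared members the share was below that of other shared peaks in both lists, at 46.2% against 63.9% in clone 3 and 10.1% against 65.0% in WT.

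Shared members, which the split by list does not separate, ranked higher in clone 3. Their percentile was higher in clone 3 for 430 of 493 members (87.2%, 84.0 to 89.9%), against 49.4% of all shared autosomal peaks. The median shift was 18.1 percentile points (16.0 to 19.5), and single members ranged from -22.6 to 59.9. Over all shared autosomal peaks the median shift was -0.0980 points. Shared peaks outside the family with under 50% of 75-base sequences found once shifted by 2.69 points (0.992 to 4.10, n = 491), and those over 10 kb from a coding TSS by 2.88 points (2.48 to 3.34, n = 6345). The shift was similar across spans, at 19.1 points (14.7 to 23.0) in copies up to 600 bp and 16.4 points (14.5 to 19.4) in copies over 1000 bp. The percentiles themselves were lower on the longest copies in both lists. Their medians were 52.7 in clone 3 and 33.0 in WT up to 600 bp, and 41.5 and 20.9 over 1000 bp. Both lists score the same loci here, but the representative was selected on these 2 lists, so the shift is not an independent observation. Shared members were longer in clone 3 at 359 of 493 loci (72.8%), against 41.4% of all shared autosomal peaks.

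**Figure D4:**
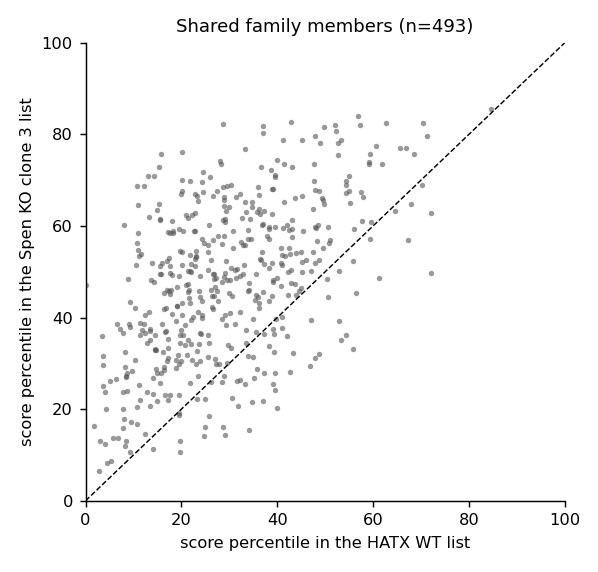
Score percentile of each of the 493 shared members in the Spen KO clone 3 list (y axis) against that of the overlapping peak in the HATX WT list (x axis), with equality as the dashed line. Points above the line rank higher in clone 3, as 430 of 493 did.

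Replicate values of single members varied widely. The rank correlation between the replicate values over members was 0.433 in clone 3 (n = 1334) and 0.479 in WT (n = 575), against 0.834 and 0.828 over all autosomal peaks, with members spanning a narrower range of scores. The largest shift up was at chr1:125753591-125754214, in an intron of Dpp10, which encodes a potassium channel subunit, with values of 27.7 and 21.2 in clone 3 and 12.2 and 13.9 in WT. The next was at chr8:30080696-30081489, in an intron of Unc5d, a netrin receptor gene, with 14.5 and 29.7 in clone 3 and 11.5 and 11.4 in WT. The third lay in intergenic sequence at chr1:100263044-100263911, with 19.2 and 26.3 against 11.6 and 12.8. These loci were chosen for their shift, and values on an unnamed scale are set side by side without a test.

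The largest shift down, of -22.6 points, was at chr2:148803646-148804765, with 19.0 and 11.2 in clone 3 and 21.9 and 19.4 in WT. At chr3:20732455-20733027 the values were 17.4 and 18.1 in clone 3 and 24.4 and 27.0 in WT, and at chr1:139241320-139242118 they were 11.3 and 14.0 against 21.1 and 13.9.

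The highest-scoring clone 3-only members were at chr2:82728635-82729223, in intergenic sequence (35.1 and 26.9), at chr3:115618880-115619646, in an intron of Dph5, a diphthamide synthesis gene (29.3 and 32.0), and at chr1:117696002-117696596, in an intron of Cntnap5a, a neurexin family gene (29.7 and 30.2). They ranked at percentiles 87.2, 86.8 and 86.0. The peak in Dph5 sat on a copy of 1103 bp with 5 YY1-type matches, followed by a frame of 1281 codons. None of its 75-base sequences occurs once in mm9. The chromosome 2 and chromosome 1 peaks sat on shorter copies, of 541 and 482 bp. These had 1 and 2 matches and longest frames of 504 and 992 codons. The shared members named below sat on copies of 489, 548 and 498 bp, with 1, 1 and 3 matches. The highest-scoring WT-only members were all intergenic, at chr3:111994955-111995755 (35.5 and 22.2), chr3:43884129-43884899 (22.2 and 19.1) and chr7:49071130-49071620 (21.1 and 19.6), at percentiles 78.9, 55.7 and 54.2. The shared members with the highest scores in the clone 3 list were at chr13:86730007-86730630, with 26.2 and 33.1 in clone 3 and 41.5 and 23.0 in WT, at chr2:95774401-95774981, with 29.6 and 27.3 against 26.9 and 15.0, and at chr10:89711748-89712305, in an intron of Anks1b, with 23.0 and 32.7 against 17.6 and 18.4.

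Members lay far from coding promoters. They were at a median of 127751 bp from the closest coding TSS for clone 3-only members, 117425 bp for WT-only members and 130966 bp for shared members of the clone 3 list, against 19039 bp, 7680 bp and 2869 bp for other peaks of the same classes. A coding TSS lay within 1 kb of 3 clone 3-only members (0.357%), 2 WT-only members and 3 shared members. The WT-only members were near Fut8, a fucosyltransferase gene, with replicate values of 17.6 and 15.0, and near Gbp8, an interferon-inducible GTPase gene, with 14.3 and 15.0. The clone 3-only members were near Gm17386 (17.4 and 13.3), near Suclg2, a subunit of succinyl-CoA ligase (14.9 and 12.9), and near Pign, a gene of GPI anchor synthesis (10.1 and 13.0). All 5 ranked below percentile 35 of their list.

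Members inside coding genes were in introns, except for the WT-only peak at the promoter of Gbp8. Of the clone 3-only members 179 were in a coding gene (21.3%, 18.7 to 24.2%), of the WT-only members 22 (27.2%, 18.7 to 37.7%) and of the shared members of the clone 3 list 144 (29.2%, 25.4 to 33.4%), and no member centre fell in an annotated coding exon. Other peaks of the same classes were in coding genes in 47.8%, 53.1% and 48.0% of cases. Copies in introns held a clone 3 peak in 42.3% of 756 cases and intergenic copies in 34.6% of 2894, while WT peaks were on 21.7% and 14.1%. The element ran opposite to its host gene in 55.9% (48.5 to 62.9%) of clone 3-only members in genes, 68.2% (47.3 to 83.6%) of WT-only and 57.6% (49.5 to 65.4%) of shared members. Among all copies in genes, 453 ran opposite to the host and 304 along it, and 40.0% (35.5 to 44.5%) and 45.7% (40.2 to 51.3%) of these held a clone 3 peak.

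In total 294 coding genes held a member, 250 of them a single member. Astn2, Macrod2 and Pde4d held 4 each, the most in any gene. Astn2, a neuronal protein gene of 1024 kb, held 3 clone 3-only and 1 shared member on 6 copies. Macrod2, an ADP-ribose hydrolase gene of 1998 kb, held 2 and 2 on 4 copies. Pde4d, a cyclic AMP phosphodiesterase gene of 1504 kb, held 1 clone 3-only, 2 shared and 1 WT-only member on 4 copies. Next in order by name, BC057079 and Cntnap2, a neurexin family gene, held 3 each. The highest-scoring clone 3-only members in genes after Dph5 and Cntnap5a were in 3110047P20Rik (32.5 and 15.9), Pde1a, a phosphodiesterase gene (21.5 and 26.5), and Vmn2r57, a vomeronasal receptor gene that overlaps Gm20449 (29.8 and 15.9). WT-only members were in Chl1, a cell adhesion gene (15.6 and 24.0), Nxph1 (21.1 and 15.0), Spock3 (15.0 and 20.7), Fut8 (17.6 and 15.0) and Phf14 (17.6 and 15.0). The shared members next in clone 3 score after Anks1b were in Agbl4, Pcdh15, Tnik and Dpp10. Their rank shifts of 53.6, 43.5, 55.9 and 59.9 points are of loci chosen by their clone 3 score and do not describe shared members in general.

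Annotated transcript starts inside copies were rare. The 3 found, of A230004M16Rik, BC057079 and Wapal, were all of processed transcripts running opposite to the element, on copies with a clone 3 peak only for the first 2 and with peaks in both lists for Wapal.

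The family was spread over every autosome. The share of copies with a clone 3 peak ranged from 26.5% on chromosome 13 to 46.1% on chromosome 2, and that with a WT peak from 9.72% on chromosome 10 to 22.0% on chromosome 2. On the X chromosome 160 of 440 copies had a clone 3 peak (36.4%, 32.0 to 41.0%) and 57 a WT peak (13.0%, 10.1 to 16.4%). Xist is known to silence the X chromosome and the lists do not state the doxycycline condition, so its part in the X values cannot be told apart. Elements on the plus and minus strands held clone 3 peaks equally often, at 36.2% each. The nearest peak outside the family lay at a median of 89.5 kb (80.7 to 97.0 kb) from clone 3-only members and 94.2 kb (86.7 to 106 kb) from shared members, against 98.6 kb (92.7 to 106 kb) for copies with no peak.

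Promoters of the genes checked beside the family gave the following. Of 7 stem cell markers matched in the annotation, 4 had a peak within 1 kb of a coding TSS in each list, with Pou5f1, Zfp42 and Esrrb in both, Sox2 in WT only and Klf4 in clone 3 only, while Nanog and Dppa4 had none in either. Of 7 markers of other cell types, 2 had a peak in WT (Gata4 and Pax6) and 1 in clone 3 (Eomes). Of 11 regulators of LINE elements, 9 had a promoter peak in WT and 8 in clone 3, with that of Setdb1 found only in WT, and Yy1 had a peak in both. Over all autosomal peaks, 26.0% of the WT list and 28.4% of the clone 3 list were found in that list only. The share of all coding promoters with a peak was not counted, so nothing is read from these marker and regulator counts. Tfcp2l1, Sox1 and Fam208a had no coding transcript under these symbols. A peak at the Spen TSS was listed in both lines, with 15.7 and 18.7 in WT and 20.5 and 13.1 in clone 3, and no other peak lay in the gene in either, so the lists do not check the deletion, whose ends are not given in the sources used here.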

How the data were processed

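ATAC-seq peaks of HATX WT and Spen KO clone 3 were used as the authors deposited them, 1 list per line. Per the study's methods, reads were trimmed with cutadapt, mapped to mm9 with Bowtie2, limited to unique proper pairs without duplicates, and peaks called with MACS2 in each of 2 technical replicates were filtered by IDR (largest value in the lists 0.0500). The deposited columns hold positions and lengths in bp and, joined in 1 field, both replicate values, whose scale is not named, and the IDR. Peak sequences and all of mm9 were searched with megablast (BLAST 2.17.0), matches within 2000 bp on a strand were merged into copies, and genes came from GENCODE vM1. Reading frames were searched in 8000 bp beside each copy, and every 75-base sequence of a peak or copy was counted over both strands of mm9. The search, overlap, frame, 75-base and interval steps were tested on simulated data. The peaks and genes named were the 3 highest-scoring per class, the 3 largest shifts each way, hosts of the 5 highest-scoring per class, the 5 genes with most members (ties by name) and genes with a TSS within 1 kb of a clone 3-only or WT-only member. The members, lists and rules were chosen with earlier results of these data known. A separate analysis in the study placed reads with several matches at random, and the lists do not state which reads they rest on. Agreement between the 2 replicate values does not measure variation between cultures, and they could be libraries without and with doxycycline.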

Additional observations from a re-analysis of the deposited data

How the results depend on the processing

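Libraries could not be paired, because the lists do not state which library each replicate value is from. No result comes from a test between the lines, and shared members were compared locus by locus as a description. At least 90% identity gave 328 clone 3-only, 31 WT-only and 116 shared members, a clone 3-only share of 73.9%, a shift of 14.6 points, a median identity of 90.9%, 23.7% of 75-base sequences found once, and peaks on 19.5% of copies in clone 3 and 6.29% in WT. Limiting both lists to scores at or above their median, which makes a shared member clone 3-only where its WT peak falls below the WT median, gave 443, 14 and 41 members, 91.5%, 20.5 points, 87.2%, 13.1%, and 13.3% and 1.50% of copies. The highest-scoring WT-only member as query gave 221, 27 and 123 members, 12.3 points, 91.9% and 37.4%. Median identity was 86.6% with blastn at 70%, 86.9% with at least 400 bp aligned and 92.7% to the majority sequence, and lists of equal size gave a shift of 16.0 points. Copies with at least 400 bp aligned held peaks in 56.1% and 24.7% of cases, and every match counted separately in 47.8% and 22.4%. Frames of at least 1000 codons followed 72.9% of members in place of 99.3%, any annotated gene held 27.8% in place of 25.7%, and the YY1 core was in 96.4% of whole peaks in place of 88.1%. Without replicate 1 or 2, with both lists limited in the same way, there were 441 to 445 clone 3-only, 21 to 35 WT-only and 46 to 59 shared members, a share of 88.3% to 90.6%, and over all members a shift of 14.1 to 18.8 points. Limiting members to at least 50% of 75-base sequences found once, chosen after seeing the data, left 82, 4 and 28 members, a share of 74.5% and a shift of 25.7 points. No shift changed direction, and in 33 of 82 alternative values the result stayed within its interval or within 1.5 times its count. The cause of these differences was not tested.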
